A study of Rattus norvegicus with 12 samples.

Results

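The genes described here encode the extracellular matrix of the kidney, the integrins by which cells hold on to it, and the secreted proteases that cut it. They were chosen by symbol: each probe with a single gene symbol that begins with Col, Lam, Itg, Mmp or Adamts in the numbered form of those families was kept, and probes of one symbol were averaged. This gave 60 genes on 90 probes, of 9653 named genes on the array. They comprised 7 fibrillar collagens, 5 basement membrane collagens, 3 other collagens, 5 laminin chains, 4 integrin chains of leukocytes, 7 other integrin alpha chains, 5 other integrin beta genes, 17 matrix metalloproteinases and 4 Adamts proteases. The remaining 3, Itgb1bp1, Itgb1bp2 and Itgb3bp, carry an integrin prefix but encode proteins named for binding integrin tails and are not integrins.

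Kidneys of inbred male Lewis rats were compared in 4 groups of 3 arrays, with 1 array per kidney or graft. Grafts of brain dead donors were taken 1 h after transplantation (replicates 21, 23 and 27), and so were grafts of living donors (replicates 22, 24 and 25). Brain dead donor kidneys not yet transplanted (0 h, replicates 1, 2 and 3) and normal kidneys (replicates 1, 2 and 3) completed the design. Brain death followed a gradual rise of intracranial pressure, and those donors were ventilated for 6 h, so the effects of brain death and of ventilation cannot be told apart in either comparison of donors. Both kinds of graft were isografts, placed orthotopically on the left side after 30 min of operative ischemia, with the recipient's right kidney removed. Age of the animals is not stated in the sources used here.

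Every value is a log2 ratio of the kidney's RNA over a mixture of 3 normal kidneys hybridised on the same array, so 0 means the amount found in that mixture and 1 means 2 times as much. Such ratios say nothing of how abundant one gene is beside another, and whether kidney cell markers are present at all cannot be read from them. In whole kidney RNA, fewer cells of a type and less RNA per cell cannot be told apart. Differences were tested with limma over all 18478 features, and a gene passed at a Benjamini-Hochberg adjusted p under 0.05. Each difference below is a log2 difference of group means, given ± its standard error. No batch is named in the sources used here, and where nothing says more about the animals, the p-values measure the spread between these kidneys.

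As background, the basement membranes of the kidney are sheets of type IV collagen and laminin under tubules, vessels and the glomerular filter, and the filter of the mature glomerulus is built from the alpha3, alpha4 and alpha5 chains of type IV collagen. Fibrillar collagens form the interstitial matrix that expands in scarring. An integrin is a pair of one alpha and one beta chain: some pairs hold epithelial cells on laminin or collagen, and others let leukocytes bind to endothelium or epithelium. Matrix metalloproteinases are zinc enzymes that are made as inactive precursors and held back by tissue inhibitors (Timps), while Adamts proteases are secreted relatives, several of which cut large proteoglycans.

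The promoters of genes on which the results turn are shown first. They run from 250 bases before to 50 bases after the annotated start and were taken from RefSeq, assembly GRCr8, which held 46 of the 60 genes. Mmp14 was among the 14 that were not matched and is named only. Each sequence is written 5′ to 3′ on the gene's own strand. The first set holds the integrin genes that passed a comparison, on chr10:58203118-58203417 (plus strand) for Itgae and chr11:80449324-80449623 (minus strand) for Itgb5, and the protease Adamts9 on chr4:127019827-127020126 (minus strand). Capitals mark a GC box, searched as GGGCGG on both strands.
Itgae: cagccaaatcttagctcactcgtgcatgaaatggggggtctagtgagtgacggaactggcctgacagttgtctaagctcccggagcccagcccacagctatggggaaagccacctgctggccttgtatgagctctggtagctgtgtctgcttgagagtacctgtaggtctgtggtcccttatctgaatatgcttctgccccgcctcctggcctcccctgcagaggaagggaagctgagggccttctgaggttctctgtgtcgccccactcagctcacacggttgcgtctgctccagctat
Itgb5: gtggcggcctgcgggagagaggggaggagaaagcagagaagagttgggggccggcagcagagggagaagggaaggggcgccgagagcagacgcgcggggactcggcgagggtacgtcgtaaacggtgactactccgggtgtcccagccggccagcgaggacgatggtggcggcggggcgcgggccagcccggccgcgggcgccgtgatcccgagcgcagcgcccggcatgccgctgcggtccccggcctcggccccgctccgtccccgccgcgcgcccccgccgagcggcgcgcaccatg
Adamts9: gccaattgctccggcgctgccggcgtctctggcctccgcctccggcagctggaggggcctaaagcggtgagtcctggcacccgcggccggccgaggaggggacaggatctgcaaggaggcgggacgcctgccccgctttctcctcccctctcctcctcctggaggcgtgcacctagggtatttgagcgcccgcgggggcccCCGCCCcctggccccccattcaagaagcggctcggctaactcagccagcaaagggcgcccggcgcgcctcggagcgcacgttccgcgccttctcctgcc
A GC box was found in 33.1% of all 33469 promoters of the table and in 21 of the 46 matched genes (45.7%). Adamts9 held 1, and neither window of the integrin genes contained these letters.

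The next pair is shown because Col4a3 and Col4a4 lie head to head and were measured separately. Their annotated starts are 413 bases apart on opposite strands of chromosome 9, at chr9:91323740-91324039 (plus strand) and chr9:91323528-91323827 (minus strand). Capitals mark the 88 bases that the 2 windows share, which read as reverse complements of each other.
Col4a3: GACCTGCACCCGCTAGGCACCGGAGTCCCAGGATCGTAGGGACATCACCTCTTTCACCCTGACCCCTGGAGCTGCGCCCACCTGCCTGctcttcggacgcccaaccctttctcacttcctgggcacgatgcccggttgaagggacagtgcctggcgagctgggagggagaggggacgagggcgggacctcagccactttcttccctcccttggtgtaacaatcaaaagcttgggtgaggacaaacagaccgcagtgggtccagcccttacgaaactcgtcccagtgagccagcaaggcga
Col4a4: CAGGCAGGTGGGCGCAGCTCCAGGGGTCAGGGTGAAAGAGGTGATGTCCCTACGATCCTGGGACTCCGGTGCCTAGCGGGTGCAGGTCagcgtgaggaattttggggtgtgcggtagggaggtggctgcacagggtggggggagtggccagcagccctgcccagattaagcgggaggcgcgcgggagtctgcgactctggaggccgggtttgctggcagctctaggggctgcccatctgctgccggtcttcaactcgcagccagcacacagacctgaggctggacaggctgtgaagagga

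The last set comes from a run of metalloproteinase genes on chromosome 8 that followed one another in the RefSeq order as Mmp3, Mmp1, Mmp10 and Mmp8, and it is set beside their values further on. Capitals mark the AP-1 motif TGANTCA and the TATA motif TATAAA, both searched on both strands. Windows are chr8:12925031-12925330 for Mmp3, chr8:12943203-12943502 for Mmp1 and chr8:12974457-12974756 for Mmp10, all on the plus strand.
Mmp3: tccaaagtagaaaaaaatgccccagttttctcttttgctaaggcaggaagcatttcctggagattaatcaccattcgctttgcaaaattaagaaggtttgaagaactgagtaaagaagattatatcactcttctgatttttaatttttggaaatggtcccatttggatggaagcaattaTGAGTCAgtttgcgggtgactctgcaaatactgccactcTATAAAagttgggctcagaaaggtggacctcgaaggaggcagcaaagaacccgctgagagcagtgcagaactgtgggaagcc
Mmp1: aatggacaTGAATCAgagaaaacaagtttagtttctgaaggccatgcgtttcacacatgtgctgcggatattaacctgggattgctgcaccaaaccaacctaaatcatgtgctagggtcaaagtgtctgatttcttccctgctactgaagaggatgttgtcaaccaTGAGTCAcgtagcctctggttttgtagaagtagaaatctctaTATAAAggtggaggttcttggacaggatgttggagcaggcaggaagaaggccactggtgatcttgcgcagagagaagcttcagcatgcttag
Mmp10: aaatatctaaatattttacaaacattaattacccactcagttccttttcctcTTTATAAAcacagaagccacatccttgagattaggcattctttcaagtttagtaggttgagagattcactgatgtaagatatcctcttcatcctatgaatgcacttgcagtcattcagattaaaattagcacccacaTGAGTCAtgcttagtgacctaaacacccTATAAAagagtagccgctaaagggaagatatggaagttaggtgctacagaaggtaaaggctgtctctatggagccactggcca
The AP-1 letters stood in 7.33% of all promoters and in 6 of the 46 matched genes (13%), all of them metalloproteinases: Mmp1, Mmp3, Mmp7, Mmp10, Mmp12 and Mmp13. Mmp1 held the motif at 2 places, and Mmp3 and Mmp10 at 1 each. The TATA letters stood in 14.2% of all promoters and in 12 of the 46 (26.1%). Letters that read alike on both strands, as those of AP-1 do, were counted once per place. The first capitals of Mmp10 are 2 overlapping TATA matches, one on each strand. A match is a run of letters and not a shown binding site.

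Few of the 60 genes differed by donor. In brain dead donor kidneys at 0 h against normal kidneys, 2 rose (Mmp14 and Adamts9) and 1 fell (Itgae). At 1 h, in brain dead donor grafts against living donor grafts, 2 fell (Itgae and Itgb5) and none rose. The 3 genes called at 0 h were 5% of the 60, against 4.65% of all features, and the 2 called at 1 h were 3.33%, against 6.76%. At an unadjusted p under 0.05, 7 of the 60 differed at 0 h (11.7%, against 17.7% of all features). By direction, 3.33% of the 60 were higher at 0 h, against 2.27% of all features, and 1.67% were lower, against 2.39%. At 1 h none was higher, against 2.02% of all features (0 by limma, with 9 of 60 at an unadjusted p under 0.05 in either direction, against 21% of all features), and 3.33% were lower, against 4.74%. These shares lie near or under the background.

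Transplantation gave no call among them. Living donor grafts, set against normal kidneys, had 0 of 60 genes past the limma threshold, against 0.731% of all features, and 9 of 60 at an unadjusted p under 0.05 (15%, against 10.9%). Groups did not overlap for 9 of 60 (15%, against 18.5%). Brain dead donor grafts, set against brain dead donor kidneys at 0 h, had 0 of 60, against 0.0541%, and 7 at an unadjusted p under 0.05 (11.7%, against 13.1%). Groups did not overlap for 7 of 60 (11.7%, against 18.8%). The difference between the donor effects at 1 h and 0 h (the interaction of donor and time) passed for 0 of 60 and for 0% of all features, and 0 of the 60 had an unadjusted p under 0.05, against 5.22% of all features. The comparisons are not independent, since the 4 groups each serve in 2 of them.

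The typical difference was small. The median absolute log2 difference over the 60 genes was 0.09 by donor at 0 h, 0.11 by donor at 1 h, 0.09 in living donor grafts against normal kidneys and 0.11 in brain dead donor grafts against brain dead donor kidneys. Over all features it was 0.09, 0.11, 0.08 and 0.10 in the same order. A mean difference of 2-fold or more was seen for 1 gene, Col4a5, in brain dead against living donor grafts (1.67% of the 60, against 0.888% of all features), and for none in the other 3 comparisons of groups, where 1.03% of all features reached it in brain dead donor kidneys against normal kidneys, 1.62% in living donor grafts against normal kidneys and 0.817% in brain dead donor grafts against brain dead donor kidneys. Groups did not overlap for 10 of 60 genes at 0 h (16.7%, against 23.9% of all features) and for 14 of 60 at 1 h (23.3%, against 25.8%).

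By class, the Adamts proteases had the highest median difference at 0 h by donor, 0.27, with 4 of 4 genes above 0, followed by the laminin chains at 0.18, with 4 of 5 above 0. The other class medians at 0 h lay between -0.07, for both the leukocyte integrin chains and the basement membrane collagens, and 0.13, for the 3 other collagens. At 1 h by donor the class medians ran from -0.03 in basement membrane collagens to 0.18 in leukocyte integrin chains. In living donor grafts against normal kidneys all 5 basement membrane collagens lay above 0, with a median of 0.36. Of these, Col4a3 differed by 0.03, and Col4a5 lay above 0 only through replicate 25 of the living donor grafts, at 2.28. In brain dead donor grafts against brain dead donor kidneys 12 of the 16 integrin genes lay under 0, with a median of -0.07. Over all features the medians lay between -0.01 and 0.01 in these 4 comparisons, and no test of a class was run.

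**Figure D1:**
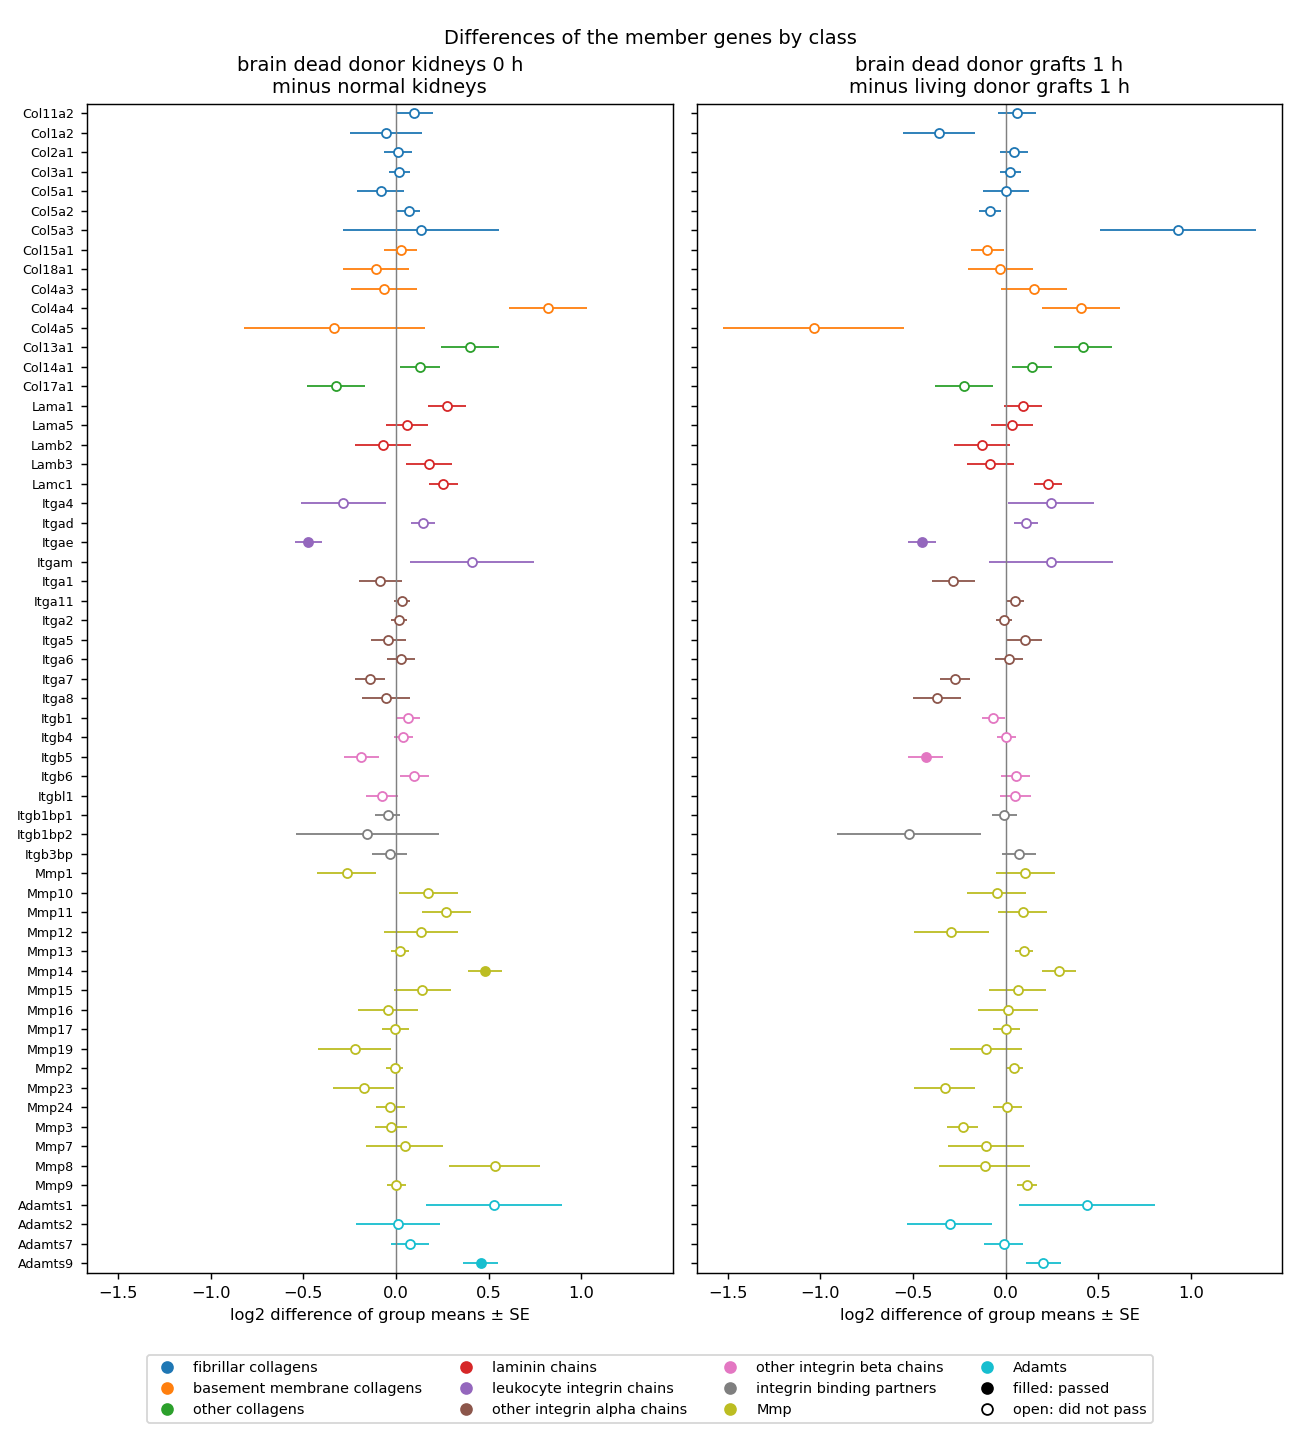
Log2 difference of group means (horizontal axis) ± SE for each of the 60 genes (rows, coloured by class) in brain dead donor kidneys minus normal kidneys (left) and in brain dead minus living donor grafts (right); filled points passed at an adjusted p under 0.05. Most points lie close to 0, with 3 filled points on the left and 2 on the right.

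Of the integrins of leukocytes, Itgae was lower in brain dead donor tissue at both times. It encodes the alphaE chain (CD103), which pairs with beta7 and binds E-cadherin on epithelial cells, and is known from T cells that lodge in epithelium and from some dendritic cells. At 0 h its log2 ratio was -0.50, -0.53 and -0.50 in brain dead donor kidneys, against -0.01, -0.03 and -0.07 in normal kidneys. At 1 h it was -0.56, -0.87 and -0.63 in brain dead donor grafts, against -0.26, -0.28 and -0.16 in living donor grafts. No 2 groups overlapped.

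The difference of Itgae was -0.47 ± 0.07 at 0 h (limma adjusted p = 0.0106, a fold of 0.721) and -0.45 ± 0.07 at 1 h (limma adjusted p = 0.00905, a fold of 0.73), with 3 arrays a group. Living donor grafts lay under normal kidneys by -0.19 ± 0.07 (limma adjusted p = 0.376), and brain dead donor grafts lay under brain dead donor kidneys by -0.18 ± 0.07 (limma adjusted p = 0.359). Neither of those passed. Without replicate 2 of the brain dead donor kidneys the 0 h difference was -0.46 with a limma adjusted p of 0.0535, and with quantile normalization the 1 h difference was -0.30 with a limma adjusted p of 0.117.

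Itgae rests on 1 probe. Of the 12 T and NK cell markers measured, 1 rose at 0 h (Gzma, a protease of cytotoxic granules, 0.82 ± 0.15, limma adjusted p = 0.0189) and 1 rose at 1 h (Cd3d, a chain of the T cell receptor complex, 0.21 ± 0.05, limma adjusted p = 0.0352), and none fell at either time, with medians of 0.08 at 0 h and -0.05 at 1 h. Their summed log2 ratio ran from -4.29 to 0.53 in brain dead donor grafts, from -1.58 to 0.03 in those of living donors, from -0.24 to 0.83 in brain dead donor kidneys and from -2.80 to -0.49 in normal kidneys. Markers at 0 cannot be named from ratios. The part of these cells in the Itgae result was not tested. Cdh1, which encodes E-cadherin, had mean log2 ratios of -0.10 in brain dead donor kidneys and -0.12 in normal kidneys, and of -0.07 in brain dead and -0.11 in living donor grafts.

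The other leukocyte chains did not pass. Itgam, the alpha chain of Mac-1 on neutrophils and macrophages, had 0.68, 0.74 and -0.29 in brain dead donor kidneys, against 0.07, -0.50 and 0.32 in normal kidneys. It had 0.00, 0.02 and 0.43 in brain dead donor grafts, against 0.44, -0.17 and -0.55 in living donor grafts, and the groups overlapped at both times. The 0.00 of replicate 21 was the only exact zero among the 1080 probe values of these genes. Itga4, the alpha chain of VLA-4, which binds Vcam1, had means of -0.27 ± 0.33 in brain dead and -0.51 ± 0.34 in living donor grafts, and of -0.48 ± 0.39 in brain dead donor kidneys and -0.20 ± 0.08 in normal kidneys (SD, n = 3 each). Itgad, another leukocyte alpha chain, lay between -0.23 and 0.11 on all 12 arrays.

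Neutrophil markers are given beside Itgam. Of the 6 measured, S100a9, a calcium-binding protein of neutrophils, rose by 3.47 ± 0.50 at 0 h (limma adjusted p = 0.00729), and none passed at 1 h. The summed log2 ratio of the 6 ran from 2.56 to 6.90 in brain dead donor grafts, from -1.15 to 0.86 in those of living donors, from 4.88 to 10.8 in brain dead donor kidneys and from -0.75 to 0.82 in normal kidneys, with no overlap by donor at either time. S100a9 and Lcn2 gave the largest parts, with means of 2.12 and 1.62 in brain dead donor grafts. The other way, Ncf1 averaged -0.07 in brain dead donor kidneys against 0.03 in normal kidneys. Ncf4 averaged 0.47 in brain dead donor grafts against 0.51 in living donor grafts. S100a8 stood at exactly 0 on brain dead donor grafts 21 and 23 and on living donor graft 22. Of the 8 monocyte and macrophage markers measured, none passed at 0 h or 1 h (0 by limma). At an unadjusted p under 0.05 there were 1 and 2, against 17.7% and 21% of all features.

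Of 7 measured ligand and partner genes of leukocyte integrins, Icam1 and Vcam1 rose at 0 h by donor and Icam1 alone at 1 h. Icam1, which binds Mac-1 and LFA-1, had 2.22, 2.12 and 1.52 in brain dead donor kidneys, against 0.24, 0.07 and 0.29 in normal kidneys, and 1.97, 1.63 and 1.84 in brain dead donor grafts, against 0.78, 0.64 and 0.63 in living donor grafts. It rose by 1.75 ± 0.16 at 0 h (limma adjusted p = 0.00151) and by 1.13 ± 0.16 at 1 h (limma adjusted p = 0.00587). Vcam1, the ligand of VLA-4, rose by 2.32 ± 0.46 at 0 h (limma adjusted p = 0.0247) and was higher by 1.60 ± 0.46 at 1 h, which did not pass (limma adjusted p = 0.0715). Icam2, another ligand of LFA-1, averaged lower, at 0.00 in brain dead donor kidneys against 0.13 in normal kidneys (limma adjusted p = 0.24) and at 0.04 in brain dead donor grafts against 0.16 in living donor grafts (limma adjusted p = 0.208). Jam3, a junction protein that binds Mac-1, averaged -0.05 in brain dead donor kidneys against 0.16 in normal kidneys (limma adjusted p = 0.602) and -0.12 in brain dead donor grafts against 0.41 in living donor grafts (limma adjusted p = 0.0743).

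Markers of endothelium and platelets are given beside Icam1 and Vcam1. Of 7 endothelial markers measured, Pecam1, an adhesion protein of endothelial junctions, rose at 0 h (0.29 ± 0.06, limma adjusted p = 0.0263), and none passed at 1 h. Kdr, a receptor for vascular endothelial growth factor, differed by -0.38 ± 0.17 at 0 h (limma adjusted p = 0.282) and by -0.50 ± 0.17 at 1 h (limma adjusted p = 0.122), and Tek, the angiopoietin receptor, by -0.46 ± 0.27 (limma adjusted p = 0.446) and -0.68 ± 0.27 (limma adjusted p = 0.179). The summed log2 ratio of the 7 ran from -0.41 to 0.18 in brain dead donor kidneys, against -0.17 to 0.69 in normal kidneys, and from -0.90 to 0.02 in brain dead donor grafts, against -0.18 to 0.68 in living donor grafts. Of 3 platelet markers, Selp, the P-selectin that activated endothelium also carries, rose by 4.16 ± 0.58 at 0 h (limma adjusted p = 0.00608) and by 3.59 ± 0.58 at 1 h (limma adjusted p = 0.00841), while Pf4 and Ppbp passed at neither time. The sum of the 3 ran from 2.38 to 4.37 in brain dead donor kidneys, against -1.11 to 0.0023 in normal kidneys, and from 2.30 to 4.41 in brain dead donor grafts, against -0.66 to -0.027 in living donor grafts. That separation rested on Selp. Pf4 averaged 0.01 in brain dead donor kidneys against 0.06 in normal kidneys, and 0.05 in brain dead against 0.17 in living donor grafts. Ppbp averaged 0.20 against 0.11 at 0 h and 0.00 against 0.14 at 1 h. The part of these cells in the results for Icam1 and Vcam1 was not tested.

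Among the other integrin beta genes, Itgb5 fell in brain dead donor grafts. It encodes the beta5 chain, which pairs with alphav and binds vitronectin. Its log2 ratio was -0.05, -0.05 and -0.24 in brain dead donor grafts, against 0.27, 0.26 and 0.43 in living donor grafts. All 3 brain dead donor grafts lay under 0 and all 3 living donor grafts above it, a difference of -0.43 ± 0.09 (limma adjusted p = 0.0257, a fold of 0.742). At 0 h it was 0.01, 0.10 and -0.21 in brain dead donor kidneys, against 0.09, 0.10 and 0.27 in normal kidneys, a difference of -0.19 ± 0.09 that did not pass (limma adjusted p = 0.355).

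The Itgb5 call was lost in several other settings, with the direction kept. With brain dead donor graft 27 left out the limma adjusted p was 0.0796, and without replicates 22, 24 or 25 of the living donor grafts it was 0.0643, 0.0535 and 0.0913, which leaves 1 gene called at 1 h, Itgae, in each of the living donor settings. The other 4 beta genes, among them Itgb1, the common beta chain of matrix-binding integrins, and Itgb4, the partner of alpha6 in hemidesmosomes, had differences from -0.08 to 0.10 at 0 h and from -0.07 to 0.05 at 1 h by donor.

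**Figure D2:**
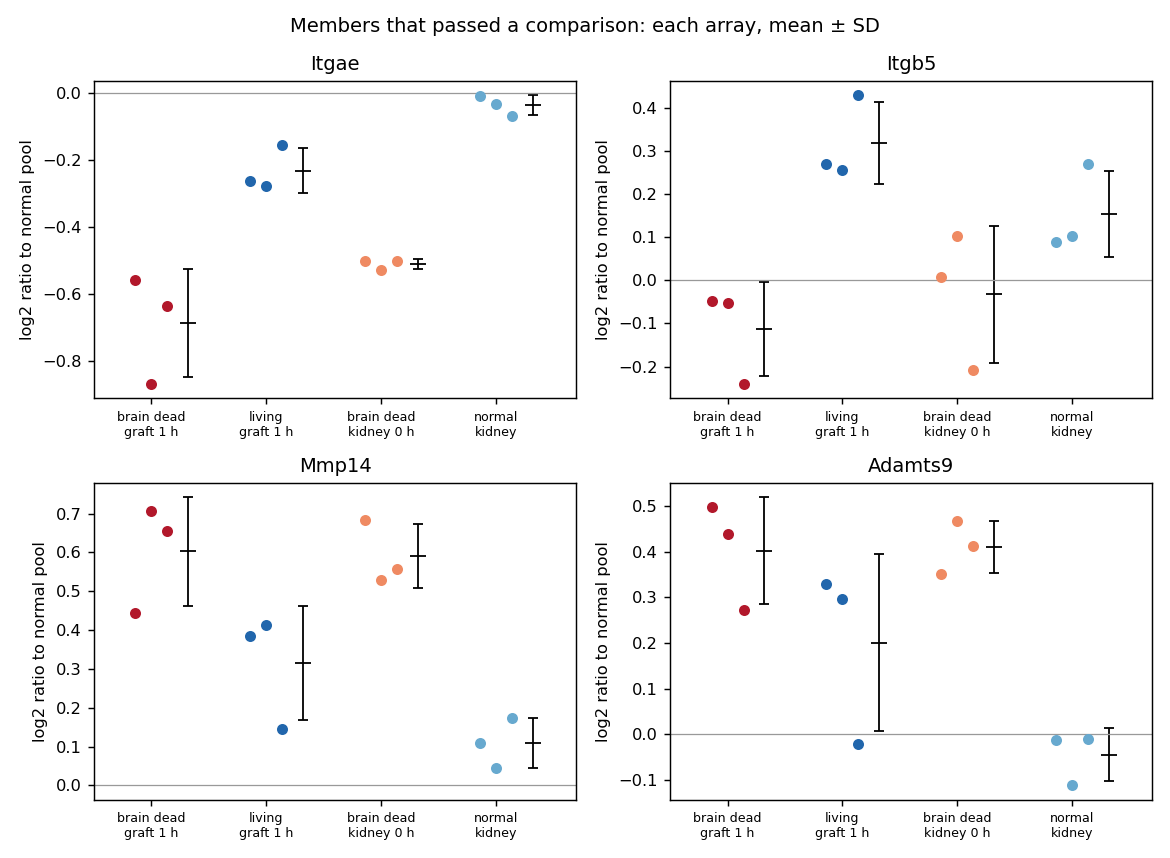
Log2 ratio to the normal mixture (vertical axis) on each of 12 arrays for the 4 genes that passed a comparison, by group (points), with mean ± SD (bars). Itgae is lower in brain dead donor tissue at both times, Itgb5 at 1 h, and Mmp14 and Adamts9 are higher in brain dead donor kidneys than in normal kidneys.

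Of the 7 other integrin alpha chains none passed in any comparison. Itga7, a laminin receptor best known from muscle, had -0.14, -0.41 and -0.35 in brain dead donor grafts, against -0.01, -0.10 and 0.03 in living donor grafts, a difference of -0.27 ± 0.08 (limma adjusted p = 0.0763). With brain dead donor graft 21 left out that difference was -0.35 and passed, with a limma adjusted p of 0.0357. Itga8, a chain needed for kidney development in mice and found on mesangial cells, had -0.19, -0.13 and -0.33 in brain dead donor grafts, against 0.06, 0.35 and 0.06 in living donor grafts, a difference of -0.37 ± 0.13 (limma adjusted p = 0.129). Groups did not overlap for either gene. Itga1, a collagen receptor chain, had 0.13, 0.37 and -0.12 in brain dead donor grafts, against 0.53, 0.37 and 0.32 in living donor grafts, with overlap (-0.28 ± 0.12, limma adjusted p = 0.201).

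The remaining alpha and beta genes varied little. Over all 12 arrays, the collagen receptor chains Itga2 and Itga11 lay between -0.05 and 0.08 and between -0.09 and 0.08, Itga5 of the fibronectin receptor between -0.34 and 0.02, and Itga6 of the laminin receptors between 0.04 and 0.36. Itgb6, whose product binds latent TGF-beta with alphav, lay between 0.00 and 0.29, and Itgbl1, a secreted relative of the beta chains, between -0.17 and 0.13. The groups of each of these genes gave no call.

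The markers of fibroblasts and mesangial cells and of podocytes are given beside these chains. Of 8 fibroblast and mesangial markers measured, 1 fell at 1 h, Pdgfra, a growth factor receptor (-0.55 ± 0.12, limma adjusted p = 0.0233), and none passed at 0 h. Pdgfrb, Dcn and Tagln also averaged lower in brain dead than in living donor grafts, while Des, Thy1, Vim and Lum averaged higher. The median difference of the 8 markers at 1 h was -0.01. The summed log2 ratio of the 8 ran from 0.29 to 1.23 in brain dead and from 1.09 to 1.82 in living donor grafts. Of 5 podocyte markers, 1 fell at 1 h, Podxl, a sialoprotein of the podocyte surface (-0.61 ± 0.14, limma adjusted p = 0.0346). The others, Wt1, Synpo, Ptpro and Cd2ap, averaged higher in brain dead than in living donor grafts. The median difference of the 5 markers was 0.06. Sums of the 5 overlapped, from -0.77 to 0.39 in brain dead and from -0.21 to 0.46 in living donor grafts. The part of these cells in the integrin results was not tested.

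The proteins that link integrins to the cytoskeleton gave no call. Of 16 measured genes of the adhesion complex, none passed by limma in any of the 5 contrasts. At an unadjusted p under 0.05 there were 4 at 0 h and 3 at 1 h, against 17.7% and 21% of all features. The 3 binding partners gave none either. Itgb1bp2, a muscle protein also called melusin, varied most, with -1.76, -0.47 and -0.91 in brain dead donor grafts, against -0.79, -0.66 and -0.12 in living donor grafts. Those groups overlapped. Itgb1bp1 lay between -0.03 and 0.19 and Itgb3bp between -0.01 and 0.34 on all 12 arrays.

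Among the metalloproteinases, Mmp14 rose in brain dead donor kidneys. It encodes a membrane-anchored enzyme that activates the precursor of Mmp2 and cuts collagen at the cell surface. Its log2 ratio was 0.68, 0.53 and 0.56 in brain dead donor kidneys, against 0.11, 0.04 and 0.17 in normal kidneys, with no overlap. The difference was 0.48 ± 0.09 (limma adjusted p = 0.0206, a fold of 1.4), and its 2 probes gave 0.48 each. At 1 h it was 0.44, 0.71 and 0.66 in brain dead donor grafts, against 0.38, 0.41 and 0.15 in living donor grafts, a difference of 0.29 ± 0.09 that did not pass (limma adjusted p = 0.0963).

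Adamts9, a secreted protease that cuts the proteoglycans aggrecan and versican, also rose at 0 h. It had 0.35, 0.47 and 0.41 in brain dead donor kidneys, against -0.01, -0.11 and -0.01 in normal kidneys, a difference of 0.46 ± 0.10 (limma adjusted p = 0.0294, a fold of 1.37). At 1 h it had 0.50, 0.44 and 0.27 in brain dead donor grafts, against 0.33, 0.30 and -0.02 in living donor grafts, where the groups overlapped (0.20 ± 0.10, limma adjusted p = 0.264).

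The counts at 0 h depended on single arrays. Without replicate 2 of the brain dead donor kidneys none of the 60 passed (0 by limma): the adjusted p was 0.0535 for Itgae, 0.0616 for Mmp14 and 0.119 for Adamts9. Without replicate 3 of those kidneys, or without replicate 1 or 2 of the normal kidneys, 1 passed, Itgae. In these 3 settings the limma adjusted p was 0.0573, 0.0657 and 0.0794 for Mmp14 and 0.0894, 0.077 and 0.103 for Adamts9. Without replicate 3 of the normal kidneys Adamts9 was also lost (limma adjusted p = 0.0719). The differences themselves stayed between 0.43 and 0.51 for Mmp14 and between 0.42 and 0.49 for Adamts9 over all 16 alternatives.

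The proteases around Mmp14 give its setting. Mmp2, the gelatinase whose precursor Mmp14 activates, lay between -0.13 and 0.01 on all 12 arrays, and Mmp9, the other gelatinase, between -0.14 and 0.10. A list of other proteases and matrix enzymes had 12 genes measured: Plau, Plat, Plg, Adam10, Adam15, Bmp1, Furin, Ctsb, Ctsk, Ctsl, Ctss and Hpse. Of these 12, 2 rose at both times. Plat, the tissue plasminogen activator, rose by 0.68 ± 0.09 at 0 h (limma adjusted p = 0.00608) and by 0.37 ± 0.09 at 1 h (limma adjusted p = 0.0438). Furin, a convertase that trims the precursors of membrane metalloproteinases, rose by 0.40 ± 0.09 at 0 h (limma adjusted p = 0.0429) and by 0.40 ± 0.09 at 1 h (limma adjusted p = 0.0332). Of 5 protease inhibitor genes measured, Timp2 and Timp3 among them, none passed by limma in any of the 5 contrasts, and none had an unadjusted p under 0.05.

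The other 16 metalloproteinases did not pass, and some varied widely between arrays. Mmp8, the collagenase of neutrophils, had 0.11, -0.08 and 0.01 in brain dead donor kidneys, against -0.69, -0.46 and -0.42 in normal kidneys, with no overlap (0.53 ± 0.24, limma adjusted p = 0.295). At 1 h it had -1.32, -0.77 and -0.09 in brain dead donor grafts, against -0.80, -0.50 and -0.53 in living donor grafts, with overlap. All 3 brain dead donor grafts lay under all 3 brain dead donor kidneys (-0.74 ± 0.24, limma adjusted p = 0.269), a difference that was -0.44 without replicate 21 and -1.05 without replicate 27.

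Mmp10 (stromelysin 2) and Mmp17 (a membrane-anchored enzyme) had higher means in grafts of both kinds of donor. Mmp10 had 0.86, 0.58 and 1.07 in brain dead donor grafts and 0.99, 0.81 and 0.85 in living donor grafts, against 0.83, 0.52 and 0.28 in brain dead donor kidneys and 0.58, 0.25 and 0.27 in normal kidneys. Living donor grafts lay above normal kidneys with no overlap (0.52 ± 0.16, limma adjusted p = 0.25), which did not pass, and brain dead donor grafts overlapped with brain dead donor kidneys (0.29 ± 0.16, limma adjusted p = 0.455). Mmp17 had 0.36, 0.33 and 0.39 in brain dead donor grafts and 0.38, 0.38 and 0.30 in living donor grafts, against 0.31, 0.07 and 0.02 in brain dead donor kidneys and 0.08, 0.14 and 0.20 in normal kidneys. Neither donor's difference over time passed (0.22 ± 0.07 in both, limma adjusted p = 0.264 and 0.299).

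The neighbours of Mmp10 on chromosome 8 had other values. In living donor grafts against normal kidneys, Mmp10 differed by 0.52, Mmp3 by -0.05 and Mmp1 by -0.31. For brain dead donor grafts against brain dead donor kidneys the differences were 0.29, -0.26 and 0.06 in the same order. Their differences by donor follow. Mmp3 (stromelysin 1) had -0.13, -0.21 and 0.12 in brain dead donor grafts, against 0.18, 0.15 and 0.15 in living donor grafts, a difference of -0.23 ± 0.08 that did not pass (limma adjusted p = 0.146), though it did with brain dead donor graft 27 left out (-0.33, limma adjusted p = 0.0346). Mmp1, an interstitial collagenase, had -0.69, -0.56 and -0.38 in brain dead donor kidneys, against -0.49, -0.13 and -0.21 in normal kidneys (-0.27 ± 0.16, limma adjusted p = 0.458). The promoters of all 3 hold the AP-1 letters, as shown above.

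Mmp12, the elastase of macrophages, had -0.14, -0.47 and -0.57 in brain dead donor grafts, against 0.29, -0.15 and 0.01 in brain dead donor kidneys, with overlap (-0.44 ± 0.20, limma adjusted p = 0.388). Mmp11 (stromelysin 3) had 0.59, 0.44 and 0.17 in brain dead donor kidneys, against 0.02, 0.03 and 0.34 in normal kidneys (0.27 ± 0.13, limma adjusted p = 0.328), and Mmp19 had 0.39, -0.43 and -0.11, against 0.49, -0.02 and 0.05. Both groups overlapped for each gene.

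The last metalloproteinases are given by their range over the 12 arrays. As a mean of 2 probes, the membrane-anchored Mmp15 was above the normal mixture on every array, from 0.37 to 1.00, normal kidneys included. This rested on its probe 3052, between 0.84 and 1.94, since its probe 17205 lay between -0.11 and 0.13. Mmp16, also membrane-anchored, was under the mixture on every array, from -0.58 to -0.05. Mmp24 lay between -0.06 and 0.21, Mmp23 between -0.84 and 0.06, and matrilysin (Mmp7) between -0.30 and 0.61. Mmp13, a collagenase, lay between -0.13 and 0.09, with living donor grafts (-0.08, -0.13 and -0.12) all under normal kidneys (-0.01, 0.08 and -0.03) by -0.12 ± 0.05 (limma adjusted p = 0.438).

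Of genes for transcription factors and growth factors that act on matrix genes, 22 were measured. In living donor grafts against normal kidneys 6 rose. They were Fos and Jun, whose products form AP-1, the zinc finger factors Egr1 (3.83 ± 0.57, limma adjusted p = 0.0191) and Klf6 (2.50 ± 0.20, limma adjusted p = 0.000588), and the matricellular proteins Ccn1 (2.93 ± 0.31, limma adjusted p = 0.00285) and Ccn2 (2.13 ± 0.39, limma adjusted p = 0.0414). Fos had the highest difference of all features there, 5.25. In brain dead donor grafts against brain dead donor kidneys Klf6 alone passed (1.53 ± 0.20, limma adjusted p = 0.0339), with Fos higher by 3.82 ± 0.82 (limma adjusted p = 0.151). There 7 of the 22 had an unadjusted p under 0.05, against 13.1% of all features. In brain dead donor kidneys against normal kidneys Klf6 rose alone (0.94 ± 0.20, limma adjusted p = 0.0306), and in brain dead against living donor grafts Smad2, a carrier of TGF-beta signals, fell alone (-0.47 ± 0.09, limma adjusted p = 0.0152).

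The other Adamts proteases did not pass. Adamts1, which cuts the same proteoglycans as Adamts9, had the widest spread: 1.47, 1.08 and 1.31 in brain dead donor grafts, 1.02, 1.22 and 0.31 in those of living donors, 1.35, 0.50 and -0.23 in brain dead donor kidneys and -0.30, 0.03 and 0.31 in normal kidneys. The brain dead donor grafts all lay above 1, while the brain dead donor kidneys spanned most of the range. Living donor grafts lay above normal kidneys by 0.84 ± 0.37 (limma adjusted p = 0.449). Brain dead donor grafts lay above brain dead donor kidneys by 0.75 ± 0.37 (limma adjusted p = 0.418), by 1.15 without replicate 1 of those kidneys and by 0.36 without replicate 3. Adamts2, which trims procollagen, ran from -0.27 to 0.78 over all 12 arrays and Adamts7 from -0.19 to 0.13.

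**Figure D3:**
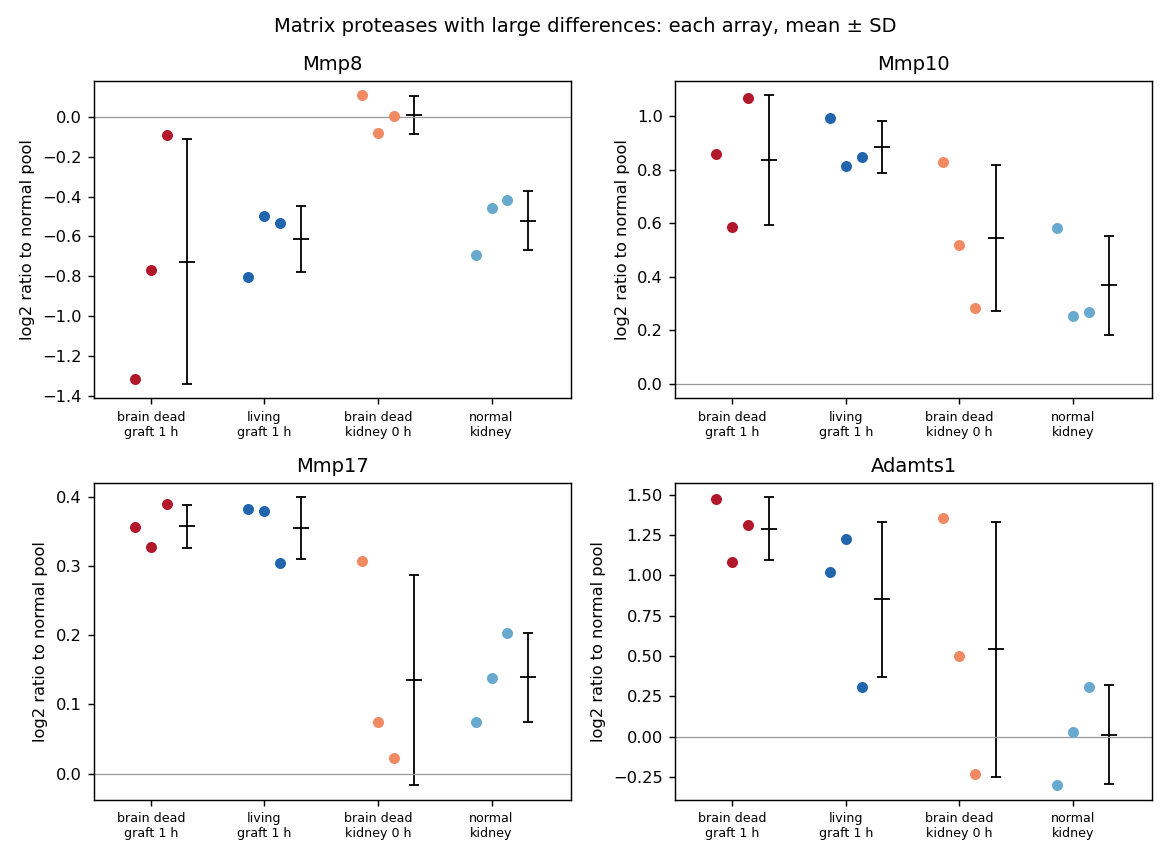
Log2 ratio to the normal mixture (vertical axis) of 4 proteases on each array (points) by group, with mean ± SD (bars). None of the 4 passed a comparison. Mmp10 and Mmp17 have higher means in both kinds of graft at 1 h. Mmp8 varies widely within brain dead donor grafts, and Adamts1 within brain dead donor kidneys and living donor grafts.

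Among basement membrane collagens, Col4a4 came nearest to passing. It encodes the alpha4 chain of type IV collagen. It had 0.23, 1.13 and 1.18 in brain dead donor kidneys, against -0.15, 0.07 and 0.14 in normal kidneys, a difference of 0.82 ± 0.21 (limma adjusted p = 0.0581). All 3 donor kidneys lay above the normal ones, but replicate 1 lay far under the other two, and without it the difference was 1.13 with a limma adjusted p of 0.000826. At 1 h it had 1.11, 0.96 and 1.03 in brain dead donor grafts, against 0.73, 0.57 and 0.58 in living donor grafts, with no overlap and no call (0.41 ± 0.21, limma adjusted p = 0.308). Living donor grafts also lay above normal kidneys (0.61 ± 0.21, limma adjusted p = 0.314).

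Col4a3, whose promoter window overlaps that of Col4a4 in the sequences above, did not show the same differences. It had 0.13, 0.31 and 0.04 in brain dead donor grafts, against 0.07, 0.07 and -0.11 in living donor grafts, and -0.56, 0.11 and 0.19 in brain dead donor kidneys, against -0.13, -0.11 and 0.17 in normal kidneys. Both genes were low on replicate 1 of the brain dead donor kidneys beside the other two. No test of the difference between the genes was run.

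Col4a5, the alpha5 chain, held the only 2-fold difference, and it rests on 1 array. It had -0.56, -0.08 and 0.00 in brain dead donor grafts, against 0.24, -0.03 and 2.28 in living donor grafts, where replicate 25 stood apart (-1.04 ± 0.49, limma adjusted p = 0.261). Without that replicate the difference was -0.31 (limma adjusted p = 0.445), and the difference of living donor grafts against normal kidneys was -0.13, against 0.59 with it. At 0 h it had -0.34, -0.01 and 0.05 in brain dead donor kidneys, against 0.08, 0.25 and 0.37 in normal kidneys.

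Col18a1, the source of the fragment endostatin, had higher means in both kinds of graft. It had 0.99, 0.82 and 0.55 in brain dead donor grafts, against 0.22, 0.50 and 0.33 in brain dead donor kidneys (0.43 ± 0.18, limma adjusted p = 0.339), and 0.89, 1.13 and 0.42 in living donor grafts, against 0.56, 0.52 and 0.29 in normal kidneys (0.36 ± 0.18, limma adjusted p = 0.513). Neither difference passed, and living donor grafts overlapped with normal kidneys. The 2 probes of Col18a1 differed by 0.85 and 0.02 in brain dead donor grafts against brain dead donor kidneys. Col15a1, its closest relative in the basement membrane zone, lay between -0.10 and 0.32 on all 12 arrays. Of the 5 podocyte markers, none passed at 0 h (0 by limma, with 1 at an unadjusted p under 0.05, against 17.7% of all features). Their summed ratio ran from -0.39 to 0.44 in brain dead donor kidneys and from -0.09 to 0.52 in normal kidneys.

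**Figure D4:**
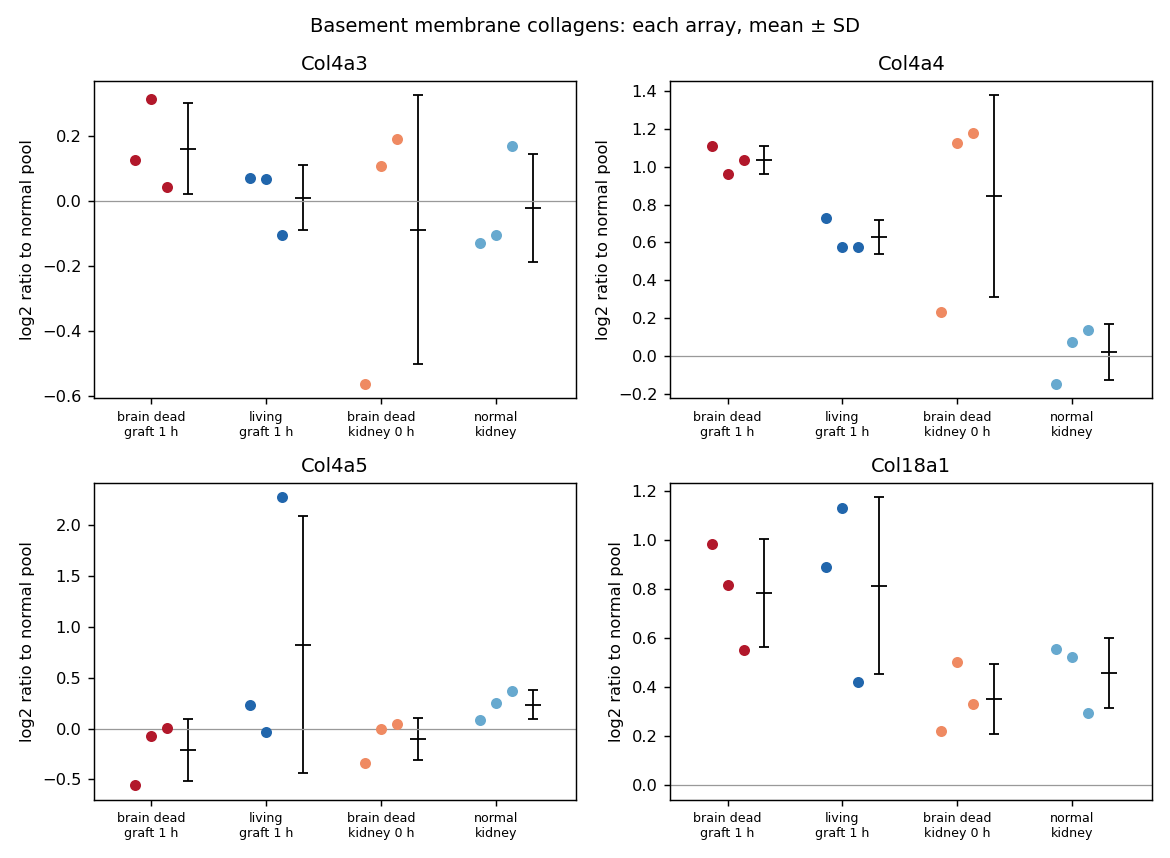
Log2 ratio to the normal mixture (vertical axis) of 4 basement membrane collagen genes on each array (points) by group, with mean ± SD (bars). Col4a4 is high in brain dead donor grafts and on 2 of 3 brain dead donor kidneys, Col4a3 is not, and the Col4a5 mean of living donor grafts is set by replicate 25 at 2.28.

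The fibrillar collagens, the matrix of scars, gave no call. Col1a2 of type I collagen had 0.11, 0.24 and -0.09 in brain dead donor grafts, against 0.34, 0.70 and 0.30 in living donor grafts, with no overlap and no call. Col3a1 of type III collagen stayed between -0.15 and 0.02 on all 12 arrays. Col5a3 varied most, with -0.31, -0.52 and -0.87 in brain dead donor grafts, against -1.91, -1.55 and -1.04 in living donor grafts (0.93 ± 0.42, limma adjusted p = 0.243). Its normal kidneys ran from -1.56 to 0.16, wider than either group of grafts. Col5a2 was lower in all 3 brain dead donor grafts (-0.19, 0.05 and 0.00) than in brain dead donor kidneys (0.14, 0.12 and 0.18) by -0.19 ± 0.06, without a call (limma adjusted p = 0.25). Over all 12 arrays Col2a1 lay between -0.09 and 0.24, Col5a1 between -0.10 and 0.39 and Col11a2 between 0.30 and 0.71.

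Of the other collagens, Col13a1, a collagen anchored in the cell membrane, had 0.23, 0.05 and 0.08 in brain dead donor grafts, against -0.21, -0.29 and -0.39 in living donor grafts, a difference of 0.42 ± 0.16 that did not pass (limma adjusted p = 0.153). At 0 h it had 0.55, 0.15 and 0.05 in brain dead donor kidneys, against 0.18, -0.35 and -0.28 in normal kidneys, with overlap. Col17a1, the transmembrane collagen of hemidesmosomes, had -0.38, -0.26 and -0.06 in brain dead donor kidneys, against 0.23, 0.22 and -0.18 in normal kidneys (-0.32 ± 0.16, limma adjusted p = 0.329). Col14a1, a collagen bound to fibrils, lay between -0.37 and 0.21 on all 12 arrays. Enzymes of collagen synthesis (12 measured) and other matrix proteins (19 measured) gave no limma call in any of the 5 contrasts. At 1 h by donor, 4 of the 12 and 1 of the 19 had an unadjusted p under 0.05, against 21% of all features.

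The laminin chains gave no call as gene means, but probes of Lamc1, the gamma1 chain of most laminins, disagreed. As a mean of 5 probes it had 0.55, 0.42 and 0.34 in brain dead donor kidneys, against 0.24, 0.10 and 0.21 in normal kidneys (0.26 ± 0.08, limma adjusted p = 0.0939). The probe listed as 2299 had 0.81, 0.62 and 0.52, against 0.17, -0.11 and 0.16, and the probe 18121 had 0.84, 0.73 and 0.45, against 0.23, 0.00 and 0.20. The probe 11668 had 0.17, 0.18 and 0.16 in brain dead donor kidneys, against 0.10, 0.26 and 0.31 in normal kidneys, and the probe 11796 had 0.72, 0.51 and 0.42, against 0.54, 0.47 and 0.73.

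When each probe was tested singly, a choice made after the data were seen, probes 2299 and 18121 passed at 0 h (0.58 ± 0.11 and 0.53 ± 0.12, limma adjusted p = 0.0223 and 0.0331). At 1 h probes 18121 and 11668 passed (0.47 ± 0.12 and 0.30 ± 0.07, limma adjusted p = 0.0395 and 0.0332). Probe 18121 thus passed in both comparisons of donors and probes 11796 and 16858 in neither. Probe 16858 differed by 0.25 ± 0.18 at 0 h (limma adjusted p = 0.598) and by -0.003 ± 0.18 at 1 h (limma adjusted p = 0.995). For probe 11668, living donor grafts lay under normal kidneys by -0.34 ± 0.07, without a call (limma adjusted p = 0.0786). Which transcripts the probes match is not stated in the sources used here.

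**Figure D5:**
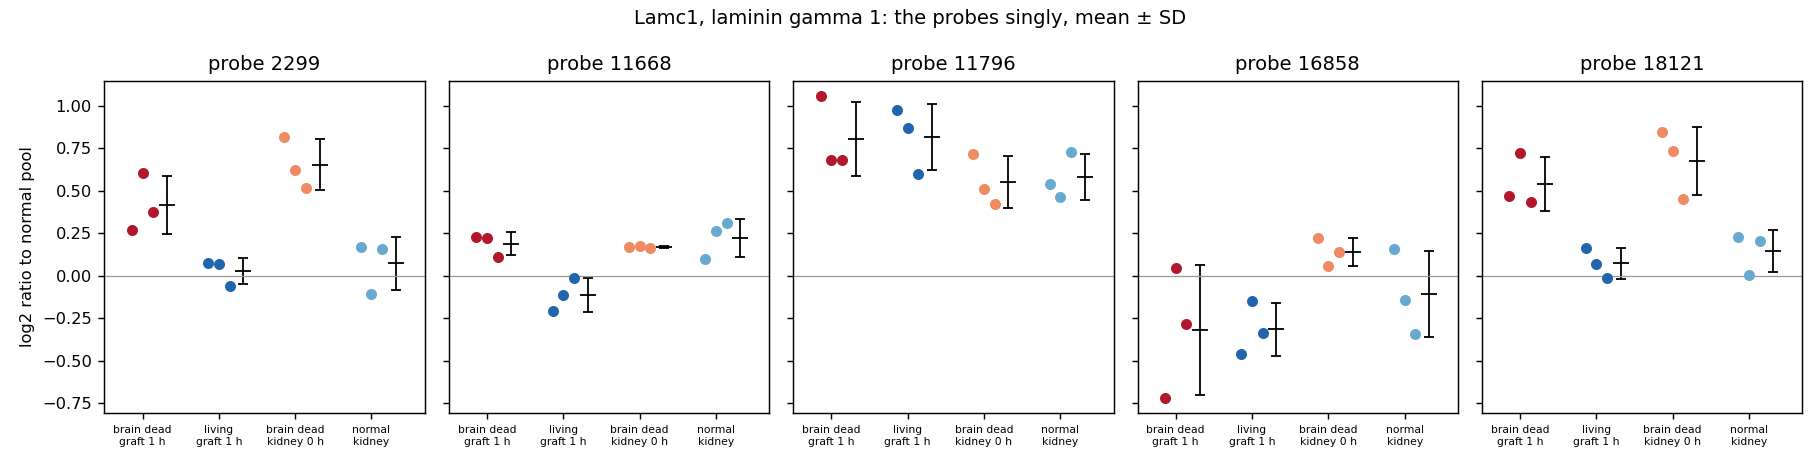
Log2 ratio to the normal mixture (vertical axis) of each of the 5 probes of Lamc1 (panels) on each array (points) by group. Probes 2299 and 18121 are higher in brain dead donor kidneys than in normal kidneys, while probes 11668 and 11796 are not. For probe 16858 these groups overlap.

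Lama1, the alpha1 chain, had 0.37, 0.43 and 0.23 in brain dead donor kidneys, against 0.21, 0.16 and -0.17 in normal kidneys, with no overlap and no call (0.28 ± 0.10, limma adjusted p = 0.174). The -0.17 of normal replicate 3 came from 1 of its 3 probes, which stood at -1.08 there. Of the chains of mature glomerular laminin, Lama5 had means of 0.62 ± 0.08 in brain dead and 0.58 ± 0.25 in living donor grafts and of 0.47 ± 0.12 in brain dead donor kidneys and 0.41 ± 0.05 in normal kidneys, and Lamb2 lay between -0.38 and 0.31 on all 12 arrays (SD, n = 3 each). Lamb3, a chain of the laminin of hemidesmosomes, lay between -0.17 and 0.36. Over the 19 genes with several probes, all probes of a gene had the same sign in 11 genes at 0 h and in 7 genes at 1 h by donor.

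The arrays set the precision of these values. The median SD between replicates was 0.13 for the 60 genes in brain dead donor grafts (0.10 for all named genes), 0.10 in those of living donors (0.09), 0.11 in brain dead donor kidneys (0.09) and 0.10 in normal kidneys (0.09). The mean correlation of an array with its own group over all features was 0.851 to 0.94, lowest for replicate 21 of the brain dead donor grafts. Replicate 25 of the living donor grafts was the farthest of its group for 36 of the 60 genes, replicate 1 of the brain dead donor kidneys for 33 and replicate 21 of the brain dead donor grafts for 25. Normal kidneys did not all lie at 0: their mean was above 0.3 for 6 of the genes and under -0.3 for 4. Each comparison is between arrays against the same mixture, in which such an offset cancels.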

How the data were processed

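Labelled RNA of each kidney (Cy3) and of a mixture of normal kidneys (Cy5) was hybridised to Agilent rat oligonucleotide arrays. Per the design text, the authors extracted spots with Agilent software, normalized each array in GeneSpring (spot, chip, lowess) and used the Cy3 over Cy5 ratio. Deposited values were taken to be log10 ratios, since they lie around 0 and end at 2 on either side, and were multiplied by 3.322 to give log2; the base and the direction rest on this reading and the design text. Intensities were not used here, so dim or saturated spots could not be weighed, and the number of arrays limits the precision.

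Titles gave the groups; one free-text description, repeated on every array, contradicts 9 of them and was set aside. Of 21575 probes, 12750 had 1 symbol in the platform annotation, 5 had several and 8820 had none; probes of one symbol were averaged, which gave 9653 named genes and 8825 unnamed probes. The fit used limma 3.58.1 (lmFit, eBayes; R 4.3.3) over 12 arrays in 4 groups, with 8 residual degrees of freedom and a prior of 1.89, in 5 contrasts. P-values were adjusted over all 18478 features of a contrast with the Benjamini-Hochberg method, with a threshold of 0.05. The script was tested on simulated data.

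The members, classes, gene lists and marker lists were chosen with earlier results of these data known. Genes named are members that passed, the 6 largest differences either way in each comparison, the 5 smallest interaction p-values, the most variable member of each class, and list genes that passed; the Lamc1 probes, Itga7, Col1a2, Col3a1, Mmp2, Mmp9, Lama5, Lamb2, Cdh1, Timp2, Timp3 and the other members were named for their role or after their values were seen. Alternatives were quantile normalization, median centring, array weights, the median of probes, named genes alone, zeros as missing, features within 0.2 of 0 left out, the compared groups fitted alone, a replicate block in such a fit, each array left out, and each probe singly. Motifs were searched with Python 3.11.15.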

Additional observations from a re-analysis of the deposited data

Results flagged for a closer look

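For 6 of the 60 genes (10%), the 3 samples of one group all lay on one side of the mean they were set against, while the 3 samples of the other group all lay on the opposite side of theirs. Of all 18478 features, 1623 (8.78%) did so, a share near that of these genes. The samples behind the means were not held to this, and single samples of the groups compared overlapped for each of the 6 genes. For Mmp9 they overlapped between living donor grafts and normal kidneys, and not between brain dead donor grafts and brain dead donor kidneys.

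Over time, 4 genes did so. Itgb5 averaged -0.08 in brain dead donor grafts relative to brain dead donor kidneys and 0.16 in living donor grafts relative to normal kidneys, a difference of -0.24 (limma adjusted p = 0.94 for the interaction). For Itga8 the difference was -0.32 (limma adjusted p = 0.944), for Col15a1 it was -0.12 (limma adjusted p = 0.949) and for Mmp9 0.11 (limma adjusted p = 0.945). By donor, 2 genes did so. Mmp1 averaged 0.10 in brain dead relative to living donor grafts at 1 h and -0.27 in brain dead donor kidneys relative to normal kidneys, a difference of 0.37 (limma adjusted p = 0.944). For Itgb1 the difference was -0.14 (limma adjusted p = 0.945). None of the 6 passed the interaction test.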

How the results depend on the processing

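Over the alternatives, the 3 genes passed at 0 h by donor became 6 with array weights (Col4a4, Lama1 and Lamc1 added) and 0 with a replicate block in a fit of the 2 groups alone, under which 2 of all features passed; that fit without the block kept the count at 3, with 350 of all features. Same-numbered brain dead donor and normal kidneys correlated in their deviations at 0.328, 0.1 and 0.0337, and 2 of the 3 correlated better with another number, so the numbers were not taken as pairs. The 2 genes passed at 1 h by donor became 0 with quantile normalization, 1 with array weights and 0 when the 2 groups were fitted alone. Leaving out single arrays gave 0 to 4 genes at 0 h and 1 to 3 at 1 h. The other 3 contrasts kept 0 genes under every alternative run. All features passed numbered 860 at 0 h, against 2852 with array weights and 165 to 1186 with an array left out, and 1249 at 1 h, against 298 with quantile normalization and 427 with the groups alone.

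The 5 calls kept their direction under all alternatives run; Itgae passed in 14 of 16 at 0 h and 13 of 15 at 1 h, Mmp14 in 11 of 16, Adamts9 in 10 of 16 and Itgb5 in 8 of 15. Over all 60 genes and comparisons, 10 values from 5 genes passed under an alternative alone. Probes tested singly were counted once per gene and comparison. Col4a4 passed so at 0 h with array weights, with named genes alone and without replicate 1 of the brain dead donor kidneys. Lama1 did at 0 h with array weights. Lamc1 did at 0 h with array weights, with the median of probes and with probes 2299 and 18121 singly. At 1 h Lamc1 did with probes 11668 and 18121 singly, Itga7 without brain dead donor graft 21 and Mmp3 without graft 27. Of the differences followed singly, those that passed or were the largest, 3 turned sign, each with an array left out: Col4a5 in living donor grafts against normal kidneys (-0.13 without living replicate 25, -0.13 to 1.02 over the arrays left out), Col13a1 in the same comparison (0.017 without normal replicate 1, range -0.25 to 0.017) and Itga4 in brain dead donor grafts against brain dead donor kidneys (-0.014 without replicate 1 of those kidneys, range -0.014 to 0.40). Leaving out an array also leaves fewer samples; no other cause was tested. Signal over background was not used here, so a weak transcript and a spot at background look alike.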
